A study of Mus musculus with 5 samples.

Results

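The genes described here are the chemokines Cxcl1, Cxcl2 and Cxcl12 and the receptors Cxcr2, Cxcr4 and Ackr3. They were chosen by gene symbol, and all 6 were found among the 31053 genes of the deposited matrices. Mouse hearts were digested with enzymes and pooled, viable nucleated cells were sorted with the dyes DRAQ5 and DAPI, and RNA of single cells was read from its 5-prime end by the 10x Genomics droplet method. Control libraries (replicates 1 and 2) came from 4 mice of genotype Ctla4+/+ Pdcd1-/-. Disease libraries (replicates 3, 4 and 5) came from 10 mice of genotype Ctla4+/- Pdcd1-/-, which model the myocarditis seen under immune checkpoint inhibitors. Both groups carry Pdcd1-/-, so no library stands for a wild-type heart. In the fields for genotype and sorting dye of the later samples the names carry running numbers that go against the design text, and groups were therefore taken from the library names and the design text. Age and day of collection are not given in the labels. Each library is 1 replicate from pooled hearts, and p-values measure only the spread between libraries. Values below are always given in the order of replicates 1 to 5, with the control values before "against" and the disease values after it.

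Chemokines are secreted proteins that steer the movement of leukocytes through receptors coupled to G proteins. CXCL1 and CXCL2 bind CXCR2, by which neutrophils enter inflamed tissue, and many cells make them soon after an inflammatory signal through the factor NF-kappaB. CXCL12 is made steadily by stromal and endothelial cells, holds leukocytes and progenitors in place through CXCR4, and is taken up and removed by ACKR3, an atypical receptor that does not signal through G proteins.

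The 250 bases before the start of the ligand genes are shown because the ligands were made by different cells and Cxcl12 was the only ligand called between the groups in a whole gate, while Cxcl2 was called in a subdivision of the macrophages. All 6 genes matched an entry of RefSeq's promoter table for GRCm38.p6, and the windows lie on the plus strand. Cxcl1 (chr5:90891245-90893121) and Cxcl2 (chr5:90903899-90905938) are neighbours, and Cxcl12 lies at chr6:117168535-117181368. Capitals mark a 10-letter NF-kappaB motif (the run of capitals in the Cxcl1 window) and the GC box GGGCGG, which reads CCGCCC on the other strand. Both motifs were searched on both strands, in chr5:90890995-90891244, chr5:90903649-90903898 and chr6:117168285-117168534.
Cxcl1: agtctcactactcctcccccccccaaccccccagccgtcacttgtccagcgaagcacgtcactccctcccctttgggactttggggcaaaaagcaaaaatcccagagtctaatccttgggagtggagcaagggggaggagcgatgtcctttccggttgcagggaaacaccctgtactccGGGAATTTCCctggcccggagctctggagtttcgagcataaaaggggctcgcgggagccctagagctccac
Cxcl2: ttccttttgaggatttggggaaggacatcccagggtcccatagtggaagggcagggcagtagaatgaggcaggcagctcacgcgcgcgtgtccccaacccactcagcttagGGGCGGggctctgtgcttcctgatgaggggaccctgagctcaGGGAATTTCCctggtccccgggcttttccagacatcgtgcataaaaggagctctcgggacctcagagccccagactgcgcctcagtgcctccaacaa
Cxcl12: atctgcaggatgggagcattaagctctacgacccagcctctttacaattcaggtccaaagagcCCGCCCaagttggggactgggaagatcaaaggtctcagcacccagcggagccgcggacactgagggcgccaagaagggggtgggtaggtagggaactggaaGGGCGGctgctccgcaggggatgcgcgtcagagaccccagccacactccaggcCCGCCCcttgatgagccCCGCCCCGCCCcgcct
The NF-kappaB motif began 71 bases before the start of Cxcl1 and 97 bases before that of Cxcl2, and 28 of 32851 mouse promoters (0.0852%) held it. Only this exact string of 10 letters was searched. Other forms of the motif were not, so the share and its absence from the Cxcl12 window cover this string alone. The longest run shared by the Cxcl1 and Cxcl2 windows, 14 bases, contained the motif. The Cxcl12 window held 5 GC boxes, a pair of them overlapping, and 32.7% of promoters held at least 1. These are matches of letters and describe no binding.

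After filtering, 37202 of 47319 barcodes were kept, 5584 to 9534 per library, with medians of 3366 to 4540 UMIs (unique molecules counted) per cell. Cells were assigned to lineages (gates) by marker UMIs. The gates held 1378 to 3159 fibroblasts, 485 to 1550 macrophages, 1761 to 2890 endothelial cells, 281 to 2584 lymphocytes, 57 to 109 mural cells and 19 to 70 neutrophils per library. No gate's share of cells separated the groups (two-sided exact permutation tests, adjusted p of 0.84 or 1, where no p can go below 0.1). Lineage markers that were not used for gating were detected in their gates in every library. Libraries shared 86 to 161 barcodes pairwise, against 75.6 to 171 for random draws. Levels are given as CPM, the gene's UMIs over all UMIs of the gate, scaled for depth. In lymphocytes Ctla4 was at 375 and 26.2 against 95.3, 579 and 462 CPM and Pdcd1 at 516 and 52.5 against 152, 965 and 707. The groups overlap for both, T cells made up 80.1, 24.9, 43.4, 82.9 and 72.8% of that gate, and the deleted parts of these genes are not given in the sources used here, so these UMIs check no label.

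Calls are read against the share of all tested genes called by the same rule (adjusted p under 0.05 in edgeR). Between the groups this was 0.379% higher and 12.7% lower (13.1% in all) in fibroblasts, 0.15% and 6.37% (6.52%) in macrophages, and 0.32% and 11.9% (12.2%) in endothelial cells. It was 0.00975% and 4.2% (4.21%) in lymphocytes, 0.308% and 7.54% (7.85%) in mural cells and 0.0373% and 6.39% (6.43%) over all cells. Among edgeR's calls far more genes were therefore lower than higher in the disease libraries, while groups that do not overlap were common in both directions. All disease libraries lay above the control libraries for 25.3, 13.3, 25.6, 9.81 and 16.7% of genes in fibroblasts, macrophages, endothelial cells, lymphocytes and mural cells, and below them for 25.4, 22.9, 23.9, 21 and 20.5%.

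Each ligand came mainly from 1 lineage, and the lineages differed between ligands. Fibroblasts held 90.4 and 87.1 against 85.4, 85.5 and 84.8% of a library's Cxcl1 UMIs, and these groups do not overlap (two-sided exact permutation p = 0.1, the smallest possible, adjusted p = 0.857). Macrophages held 93.9 and 85.3 against 88.8, 91.2 and 92.3% of its Cxcl2 UMIs, and endothelial cells 65.7 and 79.6 against 73.6, 61.7 and 71.6% of its Cxcl12 UMIs. The Wilson 95% interval of the Cxcl12 share in disease replicate 4 ran from 60.3 to 63.1%, and such intervals cover counting error only. Fibroblasts also held 72.9 to 85.9% of the Ackr3 UMIs, and macrophages 29.2 to 58.5% of the Cxcr4 UMIs.

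**Figure D1:**
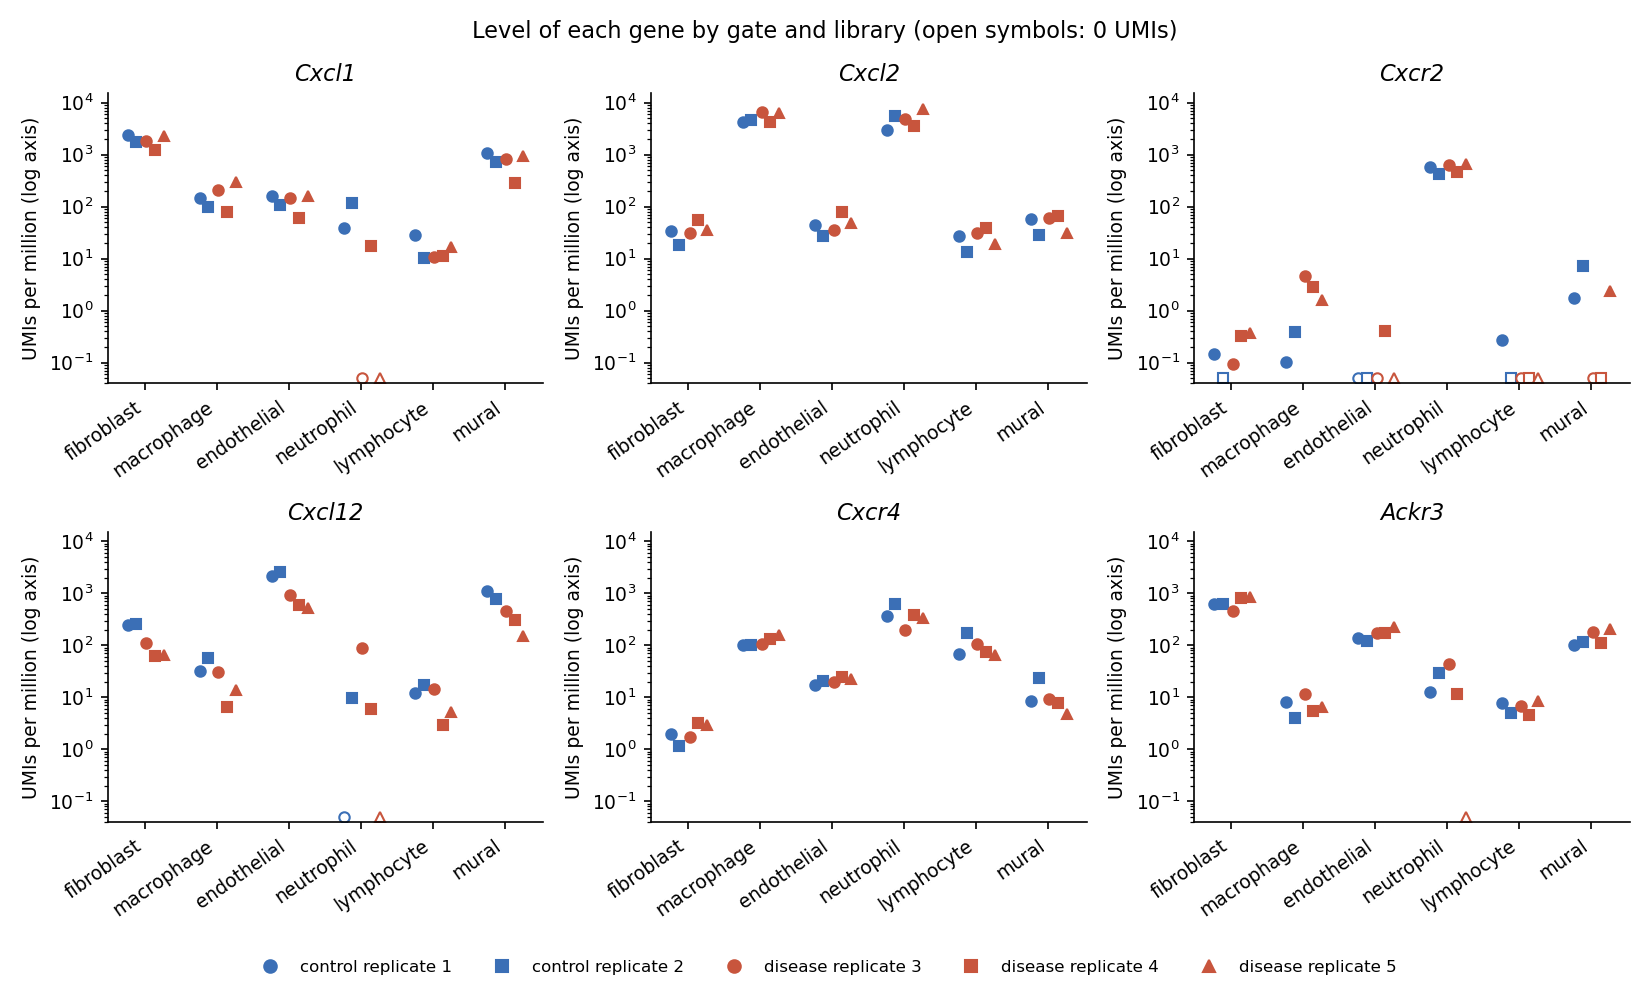
Level of each gene in 6 gates, in UMIs scaled for depth (CPM, log axis), with 1 symbol per library, control in blue, disease in red and open symbols for 0 UMIs. Cxcl1 is highest in fibroblasts (1243 to 2406), Cxcl2 in macrophages (4202 to 6682) and neutrophils (2991 to 7390.4), Cxcr2 in neutrophils (426 to 674) and Cxcl12 in endothelial cells (521 to 2604).

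Cxcl1 encodes a ligand of CXCR2. In fibroblasts its level was 2406 and 1745 against 1812, 1243 and 2252 CPM. The groups overlap, with the highest value in a control library and the lowest in a disease library (log2 fold change -0.27 with SE 0.29, edgeR adjusted p = 0.577). Mural cells, the pericytes and smooth muscle cells of vessels, came next with 1069 and 716 against 825, 286 and 934 CPM. Within libraries fibroblasts exceeded mural cells by a log2 difference of 1.61 (SE 0.20, edgeR adjusted p = 1.8e-07), a contrast in which 39.7% of genes differed. Macrophages stood below mural cells with a log2 difference of -1.73 (SE 0.20, edgeR adjusted p = 4.1e-08), where 50.9% of genes differed. Endothelial cells (60.3 to 162 CPM) stood below macrophages (80.5 to 299.7 CPM) with a log2 difference of -0.71 (SE 0.19, edgeR adjusted p = 0.00217), where 66.7% of genes differed. Lymphocytes had least of the well-filled gates, 10.2 to 27.97 CPM, and the neutrophils of all 5 libraries held 18 Cxcl1 UMIs in all.

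Shares of cells with a UMI were compared at 1 depth, with every cell thinned to 1000 UMIs and shallower cells left out. A Cxcl1 UMI was then found in 63.8 and 50.3 against 50.7, 48.9 and 57.2% of fibroblasts and in 0.852 to 3.54% of lymphocytes, which should lack the gene. Before thinning the median depths were 5450 to 6241 and 3007 to 4589 UMIs and the shares 68.7 to 82.1 and 2.82 to 12.8%. Among fibroblasts the 10% of cells with most held 42.5 to 50.6% of the Cxcl1 UMIs, and single cells reached 112 to 263. Fibroblasts were divided into adventitial cells (by Pi16, Dpp4, Cd248 and Sema3c), activated cells (by Postn, Cthrc1, Meox1 and Cilp) and others. Cxcl1 was lowest in the activated cells, with a log2 difference of -0.64 (SE 0.084, edgeR adjusted p = 3.7e-06) from the others (23.9% of genes differed) and of -0.34 (SE 0.083, edgeR adjusted p = 0.00581) from the adventitial cells (11.6% differed).

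In macrophages Cxcl1 was at 146 and 96.5 against 209, 80.5 and 299.7 CPM, with overlapping groups (log2 fold change 0.76 with SE 0.51, edgeR adjusted p = 0.453). The fold changes of fibroblasts and macrophages differed by -1.03 (SE 0.33, edgeR adjusted p = 0.57). That did not pass. With every gene of at least 1 count kept it did (edgeR adjusted p = 0.045). None of the 60 such differences, for 6 genes over 10 pairs of 5 gates, passed as designed. For these pairs edgeR called 0.153% of genes between fibroblasts and macrophages, 0.00695% between endothelial cells and fibroblasts, 0.0209, 0.0695 and 0.0348% between lymphocytes and endothelial cells, fibroblasts and macrophages, 0.0556% between endothelial cells and macrophages, and 0.0139, 0.00695, 0 and 0% between mural cells and macrophages, fibroblasts, endothelial cells and lymphocytes.

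Macrophages with a Cxcl1 UMI more often had a Cxcl2 UMI too. At equal depth 57.7 and 78.9 against 88.1, 90.8 and 90.7% of them did, compared with 48.4 and 45.05 against 53.8, 54.99 and 59.4% of the macrophages without Cxcl1. The Cxcl1-positive macrophages numbered 104, 19, 42, 98 and 75. In control replicate 1 the Wilson 95% intervals of the 2 shares overlap (48.1 to 66.7% and 45.6 to 51.2%), and in the other 4 libraries they do not. In fibroblasts the shares were 1.6 to 5.76% with and 1.18 to 3.74% without Cxcl1. The first was the higher in all 5 libraries, with overlapping intervals in each. Neither the macrophage nor the fibroblast difference was tested over libraries.

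Cxcl2 encodes the related ligand of CXCR2, made here by myeloid cells. In macrophages its level was 4202 and 4591 against 6682, 4325 and 6411 CPM. Disease replicate 4 lies between the control libraries, and the other disease libraries lie above both (log2 fold change 0.50 with SE 0.23, edgeR adjusted p = 0.313). Neutrophils had 2991 and 5512 against 4928, 3628 and 7390.4 CPM, and the level in macrophages differed from theirs by 0.28 (SE 0.22, edgeR adjusted p = 0.373) on the log2 scale, where 28.5% of genes differed. Every other gate was far lower, at 18.3 to 54.8 CPM in fibroblasts, 27.7 to 79.3 in endothelial cells, 13.5 to 39.5 in lymphocytes and 28.3 to 67.4 in mural cells. Neighbours in this order did not pass. Endothelial cells differed from fibroblasts by 0.33 (SE 0.17, edgeR adjusted p = 0.0902) and from mural cells by 0.031 (SE 0.23, edgeR adjusted p = 0.94), and fibroblasts from lymphocytes by 0.079 (SE 0.19, edgeR adjusted p = 0.716), in contrasts where 63.1, 35.9 and 76.1% of genes differed. Without disease replicate 3 the first of these passed (edgeR adjusted p = 0.042), as it did with every gene of at least 1 count kept (adjusted p = 0.0492).

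At equal depth 49.1 and 46.4 against 56.4, 57.3 and 62.7% of macrophages had a Cxcl2 UMI. These groups do not overlap, and the two-sided exact permutation test gave p = 0.1, the smallest it can give (adjusted p = 0.75). In lymphocytes the shares were 2.46, 0, 3.57, 4.33 and 1.86%, and the 0 of 352 thinned cells in control replicate 2 allows a share with a UMI at that depth of up to 0.852%. Such limits do not bound the share of cells that hold the transcript. Without thinning 55.9 to 71.6% of macrophages and 3.95 to 13.4% of lymphocytes had one, at a median of 5179 to 7379.5 UMIs per macrophage. Among macrophages the 10% of cells with most held 47.4 to 60.9% of the Cxcl2 UMIs, and single cells reached 418 to 784.

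Macrophages were divided into resident cells (by Lyve1, Folr2, Timd4 and Cd163) and cells led by MHC class II genes or Ccr2, the receptor of recruited monocytes. The resident cells numbered 52, 82, 113, 59 and 136, or 3.95, 16.9, 19.9, 3.81 and 18.5% of the gate. Their Cxcl2 level was 1599.9 and 2663 against 4927, 5689 and 5597 CPM, and every disease library lay above both control libraries. The call passed (log2 fold change 1.37 with SE 0.21, edgeR adjusted p = 0.00155), where 0.134% of 5983 genes were called higher, 6.1% lower and 6.23% in all. Leaving out each library in turn gave 1.07 to 1.74, with edgeR adjusted p of 0.00242 to 0.0293. The other subdivision had 4381 and 5057 against 7061, 4281 and 6559 CPM and did not pass (log2 fold change 0.46 with SE 0.23, edgeR adjusted p = 0.316). The fold changes of the subdivisions differed by -0.93 (SE 0.21, edgeR adjusted p = 0.574), so a difference between them was not shown. The resident result is 1 of 36 tests of these genes over 8 subdivisions, which were added after the whole gates had been seen. In the fit over all libraries the MHC class II or Ccr2 cells held more Cxcl2 than the resident cells, by 0.81 (SE 0.15, edgeR adjusted p = 7.7e-04) on the log2 scale (16.2% of genes differed). In disease replicate 4 the order was the reverse, 4281 CPM in the MHC class II or Ccr2 cells and 5689 in the resident cells.

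**Figure D2:**
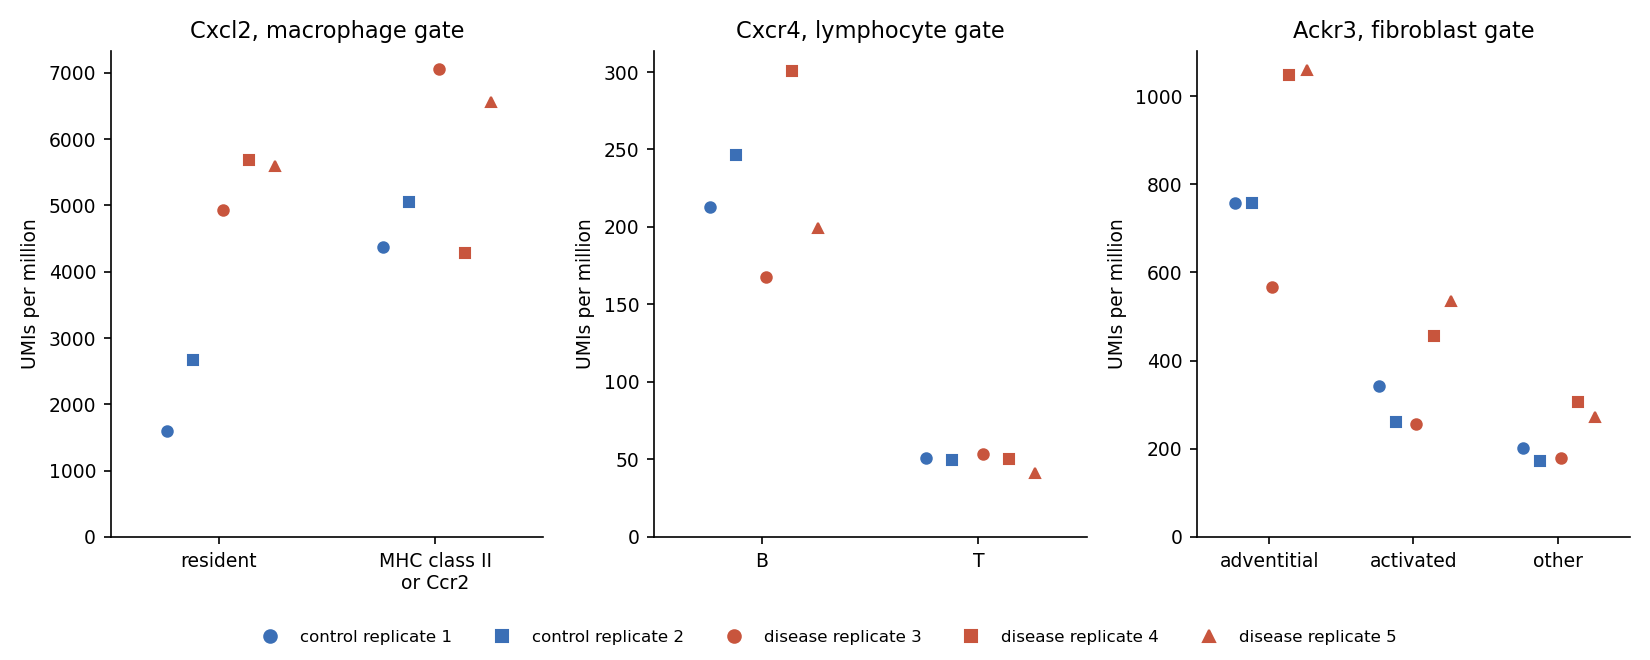
CPM of Cxcl2 in subdivisions of the macrophage gate, Cxcr4 in those of the lymphocyte gate and Ackr3 in those of the fibroblast gate, with 1 symbol per library, control in blue and disease in red. Resident macrophages separate the groups for Cxcl2 (1599.9 and 2663 against 4927, 5689 and 5597), B cells stand above T cells for Cxcr4 and adventitial cells above the other fibroblasts for Ackr3 in all 5 libraries.

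Cxcr2, the receptor of both ligands, had its highest level in neutrophils. In that gate its level was 585 and 426 against 622, 457 and 674 CPM, from 28 to 78 UMIs in 19 to 70 cells. The groups overlap. The minimum of 20 cells per library was not met, so the gate was tested at a minimum of 15, chosen after the data were seen. None of the genes passed, with Cxcr2 at 0.20, adjusted p = 0.906, Cxcl2 at 0.32, adjusted p = 0.848 and Cxcr4 at -0.63, adjusted p = 0.697 (edgeR log2 fold changes), and 0.0891% of 1122 genes were called. Neutrophils exceeded macrophages by 8.15 (SE 0.41, edgeR adjusted p = 4.7e-17) on the log2 scale. In contrasts of the neutrophils with endothelial cells, fibroblasts, lymphocytes and mural cells 41, 43.1, 37.4 and 34.9% of genes differed in level, and their fold changes differed for 0.00722, 0.00722, 0.00722 and 0% of genes, and for 0.0505% against macrophages. No library had more than 5 Cxcr2 UMIs in its fibroblasts, endothelial cells, lymphocytes or mural cells.

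At equal depth 53.6 and 34.1 against 52.6, 46.03 and 71.4% of neutrophils had a Cxcr2 UMI and no thinned lymphocyte had one, which allows shares with a UMI at that depth of up to 0.118 to 1.07%. Without thinning the shares were 44 to 82.8% at a median of 1687 to 2058 UMIs, and 0 to 0.153%. The neutrophil gate held 74.2 and 78.6 against 36.8, 52.7 and 53.3% of a library's Cxcr2 UMIs and ungated cells 16.1 and 14.3 against 40.8, 19.6 and 23.3%, more than the neutrophil gate in disease replicate 3. The macrophage gate held 1.61 and 1.79 against 21.1, 23.6 and 13.3%. Neither the neutrophil nor the macrophage shares overlap between the groups (exact permutation p = 0.1, the smallest possible, adjusted p = 0.857 for each). In the gate, cells with at least 10 UMIs of S100a8 and S100a9, alarmins that neutrophils carry in bulk, numbered 28, 45, 19, 61 and 21. The remaining 1, 5, 0, 9 and 1 cells held 614, 0, 0, 2043 and 727 UMIs of Cd74, the MHC class II invariant chain. Among the S100-positive cells alone Cxcr2 was at 778 and 445 against 622, 649.8 and 907 CPM and Cxcl2 at 3973 and 5662 against 4928, 4937 and 9954, again with overlapping groups.

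Within the macrophage gate Cxcr2 was called higher in the disease libraries, on few UMIs. There were 1 and 1 against 16, 35 and 8 (log2 fold change 4.04 with SE 0.83, edgeR adjusted p = 0.038). The gene passed the filter on low counts only through the disease libraries, so it had to differ, and the call supports nothing further. S100-positive cells, by the same minimum, numbered 0 and 0 against 6, 23 and 7 in this gate, and 0, 0, 13, 31 and 8 of the Cxcr2 UMIs lay in them, replicate by replicate. Without these cells 1, 1, 3, 4 and 0 UMIs were left and the gene fell below the filter on low counts. The neutrophil genes S100a8 (log2 fold change 5.80 with SE 0.37, edgeR adjusted p = 0.00152), S100a9 (log2 fold change 5.68 with SE 0.28, edgeR adjusted p = 0.00106), Il1f9 and Trem1 were called higher in the same gate, and these 4 were picked after their values were seen. Neutrophil genes not used for gating summed to 34.8 and 29.3 against 355, 391 and 286 CPM there, with 4 of 5 detected in each control library (Ly6g at 0) and 5 of 5 in each disease library. The disease cells with Cxcr2 had medians of 143 to 364 macrophage-marker and 13 to 25.5 neutrophil-marker UMIs, so both kinds of RNA stood under the same barcodes. The call was lost without control replicate 1 (3.001, adjusted p = 0.314), control replicate 2 (4.62, adjusted p = 0.128) or disease replicate 5 (4.33, adjusted p = 0.0687), and without disease replicate 4 the gene did not pass the filter. The MHC class II or Ccr2 subdivision held 1 and 0 against 12, 35 and 8 of these same UMIs, so its call (log2 fold change 4.88 with SE 0.84, edgeR adjusted p = 0.018) is not a separate result, and there 0.237% of genes were called higher, 6.62% lower and 6.86% in all.

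**Figure D3:**
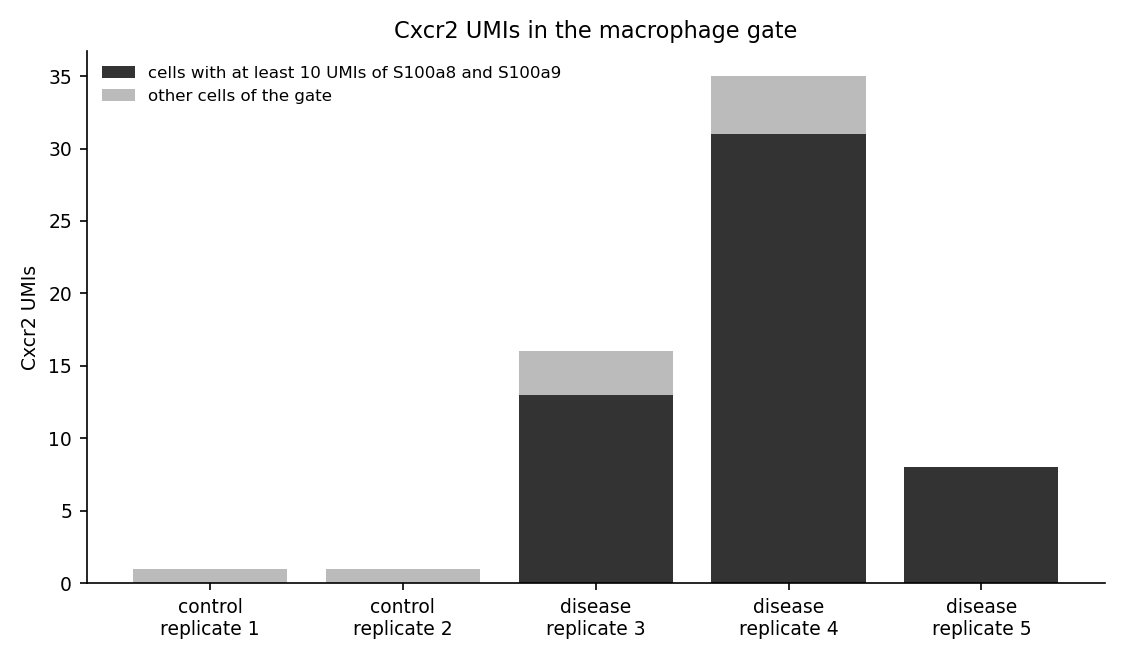
Number of Cxcr2 UMIs in the macrophage gate of each library, divided between cells with at least 10 UMIs of S100a8 and S100a9 (dark) and the other cells (light). The dark part holds 13 of 16, 31 of 35 and 8 of 8 UMIs in the disease libraries and none in the control libraries.

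Cxcl12 encodes the ligand of CXCR4 and ACKR3, and it was lower in the disease libraries in endothelial cells, fibroblasts and mural cells. In endothelial cells its level was 2194 and 2604 against 952, 585 and 521 CPM (log2 fold change -1.86 with SE 0.28, edgeR adjusted p = 0.0104). In fibroblasts it was 248 and 262 against 113, 62.1 and 64.9 CPM (log2 fold change -1.71 with SE 0.28, edgeR adjusted p = 0.0139). In mural cells it was 1127 and 794 against 457, 313 and 154 CPM (log2 fold change -1.65 with SE 0.35, edgeR adjusted p = 0.0165). The groups overlap in none of these gates, and disease replicate 3 was the closest to the controls in each. Macrophages had 32.7 and 56.2 against 30.7, 6.56 and 13.9 CPM (log2 fold change -1.34 with SE 0.53, edgeR adjusted p = 0.256) and lymphocytes 12.2 and 16.9 against 14.6, 2.93 and 5.17 (log2 fold change -1.05 with SE 0.75, edgeR adjusted p = 0.579), and neither passed. Macrophages separate the groups and lymphocytes do not. Summed over all cells of a library Cxcl12 did not pass either (log2 fold change -1.97 with SE 0.56, edgeR adjusted p = 0.144).

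**Figure D4:**
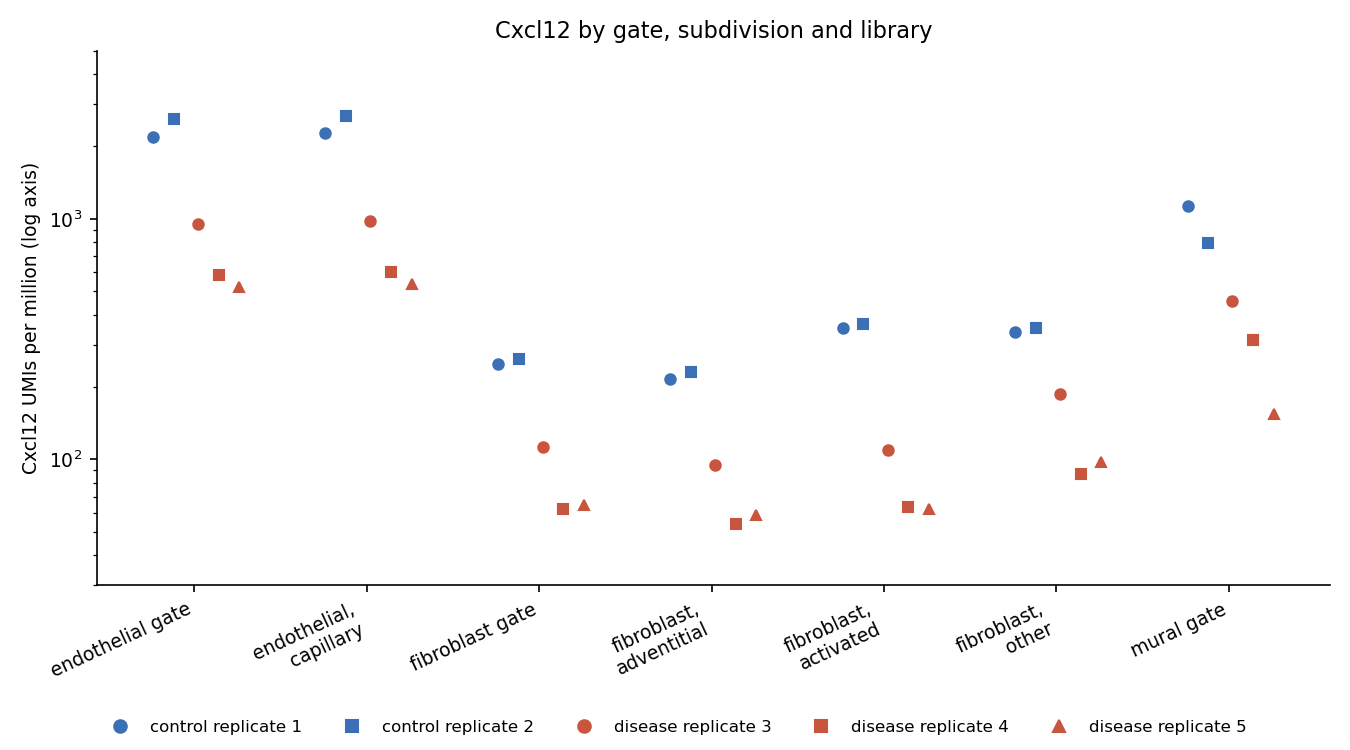
Cxcl12 CPM (log axis) in the endothelial, fibroblast and mural gates and in their larger subdivisions, with 1 symbol per library, control in blue and disease in red. In each column the 3 disease libraries lie below the 2 control libraries, and disease replicate 3 is the highest of them.

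The fold changes of endothelial cells and fibroblasts differed by -0.051 (SE 0.36, edgeR adjusted p = 1), those of endothelial and mural cells by -0.11 (SE 0.38, edgeR adjusted p = 1) and those of fibroblasts and mural cells by -0.056 (SE 0.38, edgeR adjusted p = 1). None passed, which does not show that the falls were equal. Within the gates the fall was called in capillary endothelial cells (log2 fold change -1.86 with SE 0.28, edgeR adjusted p = 0.00992), which made up 96.3 to 97.3% of the endothelial gate. There 11.8% of genes were called lower, 0.3% higher and 12.1% in all. It was called in adventitial fibroblasts (log2 fold change -1.74 with SE 0.26, edgeR adjusted p = 0.00899), where these shares were 12.7, 0.31 and 13%. Activated fibroblasts fell from 351 and 364 CPM to 109.8, 63.1 and 62.3 (log2 fold change -2.20 with SE 0.27, edgeR adjusted p = 0.00371, shares 6.62, 0.155 and 6.77%). The other fibroblasts were at 339 and 353 against 188, 87.2 and 97.9 CPM (log2 fold change -1.44 with SE 0.33, edgeR adjusted p = 0.0329, shares 10.3, 0.394 and 10.7%). The fold changes of activated and other fibroblasts differed by -0.72 (SE 0.15, edgeR adjusted p = 0.165). Each of these subdivision calls was lost on leaving out at least 1 library, the activated call without control replicate 1 (edgeR adjusted p = 0.0552), the capillary call without control replicate 2 (0.0812) and the adventitial and other calls without either control library or disease replicate 5 (up to 0.072 and 0.192). Arterial cells, 8 to 22 per library, had 806 and 1161 against 632, 0 and 123 CPM, and venous, lymphatic and endocardial cells 0 to 203.

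At equal depth 70.3 and 75.4 against 50.4, 39.6 and 35.9% of endothelial cells, 20.01 and 20.4 against 10.8, 5.08 and 6.2% of fibroblasts and 0.236 to 2.5% of lymphocytes had a Cxcl12 UMI. The first 2 gates separate the groups, and each exact permutation test gave p = 0.1, the smallest possible (adjusted p = 0.75). Among endothelial cells with a Cxcl12 UMI, not thinned, the median was 6 and 6 against 3, 2 and 2 UMIs, and among such fibroblasts 2 and 2 against 1, 1 and 1. Both the share of cells with a UMI and the UMIs per positive cell were thus lower in each disease library. Without thinning the shares were 60.99 to 90.3, 24.7 to 58.9 and 1.16 to 5.5%, at a median of 2392 to 3199 UMIs per endothelial cell.

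Other measures moved with the groups. The first 300 bases of the Cxcl12 transcript had 61% GC, and among genes of similar GC 15.2% were called lower in endothelial cells, 17.5% in fibroblasts and 9.84% in mural cells. With each library's GC trend removed, an alternative chosen after the data were seen, the call was kept in these gates (-1.67, adjusted p = 0.013, then -1.52, adjusted p = 0.0174 and -1.48, adjusted p = 0.0266). In the mural gate all 4 endothelial genes not used for gating were detected, at 5417 and 5652 against 7269, 8024 and 6524 CPM in sum. The clock gene Dbp, picked after its values were seen, was at 95.3 and 105 against 279.8, 319.8 and 397 CPM in endothelial cells (log2 fold change 1.66 with SE 0.17, edgeR adjusted p = 0.0022) and at 43.3 and 36.3 against 118, 145 and 142 in fibroblasts (log2 fold change 1.72 with SE 0.17, edgeR adjusted p = 0.00203). The part of endothelial RNA in the mural gate and of the hour of collection in the Cxcl12 result was not tested. The endothelial call was lost without control replicate 2 (-1.74, adjusted p = 0.0852). The fibroblast call was lost without control replicate 1 (-1.72, adjusted p = 0.0804), control replicate 2 (-1.71, adjusted p = 0.0967) or disease replicate 5 (-1.60, adjusted p = 0.0673). The mural call was lost without control replicate 1 (-1.32, adjusted p = 0.151) or disease replicate 5 (-1.31, adjusted p = 0.0547).

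Among the gates endothelial cells had most Cxcl12, above mural cells by 1.39 (SE 0.19, edgeR adjusted p = 1.1e-06) on the log2 scale. Fibroblasts differed from mural cells by -1.66 (SE 0.19, edgeR adjusted p = 4.5e-08) and from macrophages by 2.26 (SE 0.20, edgeR adjusted p = 6.5e-11), where 69% of genes differed. Adventitial fibroblasts had less than the other fibroblasts, with a log2 difference of -0.66 (SE 0.092, edgeR adjusted p = 5.9e-06) (32.4% of genes differed).

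Cxcr4, the signalling receptor of CXCL12, was found mainly in leukocytes. Neutrophils had 369 and 619.98 against 199.8, 393 and 337 CPM, from 9 to 67 UMIs. Macrophages had 101 and 102 against 107, 131 and 159 CPM. All 3 disease libraries lay above both control libraries there, but the difference did not pass (log2 fold change 0.51 with SE 0.25, edgeR adjusted p = 0.346). Lymphocytes had 69.8 and 170.2 against 105, 73.9 and 64.9 CPM, with overlapping groups (log2 fold change -0.45 with SE 0.46, edgeR adjusted p = 0.676). Macrophages differed from neutrophils by -1.58 (SE 0.26, edgeR adjusted p = 1.4e-05) on the log2 scale. Lymphocytes differed from macrophages by -0.34 (SE 0.21, edgeR adjusted p = 0.148), where 64.8% of genes differed, and leaving out control replicate 2 made that pass (-0.67, adjusted p = 4.7e-04). Endothelial cells, at 16.9 to 24.3 CPM, differed from lymphocytes by -2.56 (SE 0.22, edgeR adjusted p = 5.7e-11), where 70.6% of genes differed. Fibroblasts had 1.15 to 3.19 CPM.

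B cells had more Cxcr4 than T cells in all 5 libraries. B cells were at 213 and 247 against 168, 301 and 199 CPM and T cells at 51.1 and 49.6 against 53.6, 50.4 and 41.2, a log2 difference of 2.44 (SE 0.16, edgeR adjusted p = 1.1e-07), where 43.7% of genes differed. B cells made up 17.7, 70.6, 52.7, 15.6 and 24.9% of the lymphocyte gate, and control replicate 2, with the largest share, also had the highest Cxcr4 in that gate. Neither subdivision passed between the groups, B cells with log2 fold change 0.039 with SE 0.26, edgeR adjusted p = 0.955 and T cells with log2 fold change -0.029 with SE 0.30, edgeR adjusted p = 0.976. In B cells 0.254% of genes were called higher, 8.63% lower and 8.89% in all, and in T cells 0.0103, 4.96 and 4.97%. At equal depth 9.25 and 9.29 against 10.4, 11.5 and 13.9% of macrophages and 0.0733 to 0.352% of fibroblasts had a Cxcr4 UMI, and without thinning 29.1 to 48.6 and 0.726 to 1.8%.

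Ackr3 encodes the atypical receptor that removes CXCL12. In fibroblasts it was at 625 and 614 against 468, 803 and 863 CPM, with the lowest and the highest value both among the disease libraries (log2 fold change 0.16 with SE 0.27, edgeR adjusted p = 0.739). In endothelial cells it was at 139 and 121 against 175, 175 and 228 CPM, and all disease libraries lay above the control libraries. That difference did not pass (log2 fold change 0.51 with SE 0.15, edgeR adjusted p = 0.107), while DESeq2 gave 0.54 with an adjusted p of 0.0397. Mural cells had 101 and 116 against 177, 111 and 203 CPM (log2 fold change 0.61 with SE 0.27, edgeR adjusted p = 0.245). The fold changes of endothelial cells and fibroblasts differed by 0.44 (SE 0.33, edgeR adjusted p = 1). Fibroblasts exceeded endothelial cells in level by 2.15 (SE 0.17, edgeR adjusted p = 7.9e-12) on the log2 scale. Endothelial cells and mural cells, which differed by 0.38 (SE 0.18, edgeR adjusted p = 0.117), and lymphocytes (4.52 to 8.61 CPM) and macrophages (3.96 to 11.6 CPM), which differed by -0.13 (SE 0.25, edgeR adjusted p = 0.676), did not pass. Without disease replicate 3 endothelial cells passed as higher than mural cells (edgeR adjusted p = 0.0297), as they did with up to 25% mitochondrial UMIs (0.52, adjusted p = 0.0182). With doublets kept lymphocytes passed as lower than macrophages (-0.56, edgeR adjusted p = 0.0494). Lymphocytes lay below mural cells, with a log2 difference of -3.92 (SE 0.24, edgeR adjusted p = 1.1e-13), where 60.5% of genes differed.

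Among fibroblasts the cells labelled adventitial had most Ackr3. In every library the level of the whole gate lay nearer to theirs than to that of the activated or the other cells. Cells under this label thus held most of the gate's UMIs and are no small part of it. Adventitial cells were at 757 and 758 against 567, 1047 and 1059 CPM, activated cells at 343 and 262 against 256, 455 and 535 and the others at 202 and 172 against 178, 306 and 273. The order was the same in all 5 libraries. Adventitial cells exceeded the others by 1.95 (SE 0.078, edgeR adjusted p = 4.3e-15) on the log2 scale and activated cells exceeded them by 0.77 (SE 0.083, edgeR adjusted p = 2.1e-07). At equal depth 33.6 and 31.6 against 26.9, 39.6 and 40.9% of fibroblasts and 0.284 to 1.33% of lymphocytes had an Ackr3 UMI, and without thinning 58.8 to 70.8 and 1.69 to 4.13%. Among fibroblasts with a Cxcl12 UMI 29.3, 26.98, 23.5, 33.7 and 37.7% also had Ackr3, and among those without 34.7, 32.8, 27.3, 39.9 and 41.1%. The share was lower with Cxcl12 in all 5 libraries, while the Wilson 95% intervals of the 2 shares overlap in each. The difference was not tested.

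**Figure D5:**
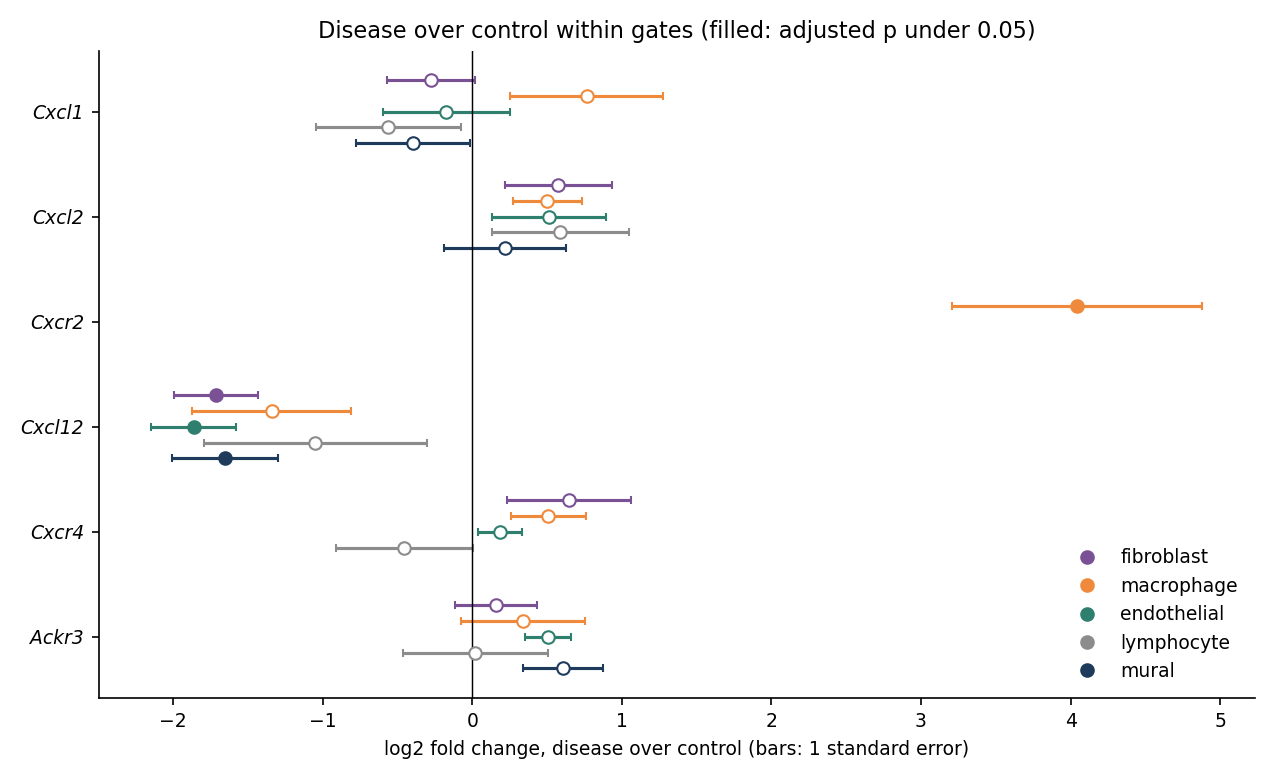
Log2 fold change of disease over control for each gene in 5 gates, with bars of 1 standard error and filled symbols for an adjusted p under 0.05. The filled symbols are Cxcl12 in fibroblasts, endothelial and mural cells and Cxcr2 in macrophages.

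Of the genes that passed the filter on low counts, 1 of 5 was called in fibroblasts and in endothelial cells and 1 of 4 in mural cells, each time Cxcl12. Over all genes 13.1, 12.2 and 7.85% were called in these gates, 6.52% in macrophages, 4.21% in lymphocytes and 6.43% over all cells. A count of 1 among so few genes cannot be told apart from these shares. In macrophages none of 5 was called beside Cxcr2, which is left out of this count because it passed the filter only through the disease libraries. None of 5 was called in lymphocytes and none of 6 over all cells, where DESeq2 called Cxcl12. Cxcl2 had a positive fold change in each of the 5 gates and passed in none. These signs come from the same libraries and are not separate observations. Outside macrophages these gates held at most 79.3 CPM, and the mural sign turned with doublets kept (-0.47). The part of macrophage RNA in the other gates was not tested.

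Further genes of the pathways were read from lists. Their calls stand against the shares of all genes called lower. These were 12.7% in fibroblasts, 6.37% in macrophages, 11.9% in endothelial cells, 4.2% in lymphocytes and 7.54% in mural cells. In each gate 0.379% or fewer were called higher. Of 9 genes of the CXCR2 system, among them the ligands Cxcl3 and Cxcl5, none was called in any gate, with 1 to 4 tested. Cxcl5 was at 27.4 and 14.4 against 28.2, 63.02 and 27.2 CPM in fibroblasts, and Pf4, the chemokine CXCL4, at 1393 and 2133 against 2398, 814 and 1748 in macrophages. In the list around CXCR4 and ACKR3, Cxcl14, a chemokine reported to bind CXCR4, was lower in fibroblasts, at 588 and 577 against 134, 98.1 and 85.2 CPM (log2 fold change -2.50 with SE 0.21, edgeR adjusted p = 0.00128), and was called lower in macrophages, endothelial cells and lymphocytes too. The lymphocyte call rested on 39 and 9 against 1, 11 and 7 UMIs. The part of fibroblast RNA in these other gates was not tested. Hif1a, an oxygen-sensing factor, was also lower in fibroblasts, and Ramp2 in macrophages. In endothelial cells 3 of 10 genes of this list were called lower (Cxcl14, Hif1a and Ramp2) and 1 higher (Calcrl). Calcrl and Ramp2 together form the receptor of adrenomedullin, which ACKR3 also binds. Ramp2 was at 1038 and 1199.8 against 488, 325 and 357 CPM (log2 fold change -1.58 with SE 0.20, edgeR adjusted p = 0.00546) and Calcrl at 144 and 134 against 188, 205 and 194 (log2 fold change 0.43 with SE 0.096, edgeR adjusted p = 0.0405).

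Of 13 genes that carry or end the receptors' signal, Arrb2, a beta-arrestin, was called lower in fibroblasts (log2 fold change -1.08 with SE 0.17, edgeR adjusted p = 0.0127), macrophages (log2 fold change -1.06 with SE 0.18, edgeR adjusted p = 0.019998) and endothelial cells (log2 fold change -1.07 with SE 0.14, edgeR adjusted p = 0.00611), and Gnai3, an inhibitory G protein, in fibroblasts. The shares of all genes called lower there were 12.7, 6.37 and 11.9%. Of 17 NF-kappaB induced genes 3 were called lower in fibroblasts (Nfkbia, Relb and Socs3), 1 in macrophages (Relb), 4 of 16 in endothelial cells and 1 of 10 in mural cells, and none higher in any gate. Over all genes 12.7, 6.37, 11.9 and 7.54% were called lower in these gates and 0.379, 0.15, 0.32 and 0.308% higher. The median log2 fold change of this list was 0.39 in fibroblasts, 0.37 in macrophages and 0.18 in endothelial cells, against -0.012, 0.015 and -1.6e-04 over all genes tested. In these gates the list's median was thus positive, while its calls, like nearly all calls over all genes, were lower. In mural cells the median was -0.067, against 0.016, with 4 of 10 positive. Nfkbia, the inhibitor that NF-kappaB induces, was at 764 and 609 against 259.998, 149 and 140.2 CPM in fibroblasts (log2 fold change -1.95 with SE 0.31, edgeR adjusted p = 0.0118).

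Some of the immediate early genes, which digestion of tissue is known to induce, were called between the groups. Of 13, 3 were called lower in fibroblasts and in macrophages (Atf3, Dusp1 and Jund), 3 in endothelial cells (Atf3, Dusp1 and Egr1) and 3 in mural cells (Atf3, Dusp1 and Jund), and none higher. Over all genes 12.7, 6.37, 11.9 and 7.54% were called lower in these gates and 4.2% in lymphocytes, with far fewer called higher. In lymphocytes none was called. The fold change was positive for 2 of the 13 in fibroblasts, 0 in macrophages, 6 in endothelial cells, 5 in lymphocytes and 5 in mural cells, with medians of -0.49, -0.65, -0.64, -0.20 and -0.10 on the log2 scale. Atf3 was at 832 and 759.9 against 157, 165 and 166 CPM in fibroblasts (log2 fold change -2.33 with SE 0.11, edgeR adjusted p = 3.7e-04). The list summed to 18858 and 19860.5 against 14500.5, 14487 and 16303 CPM in fibroblasts, 16200.2 and 21652 against 14359.5, 8043 and 11595 in macrophages and 12526 and 11436 against 8502, 9682 and 10325 in endothelial cells. In lymphocytes it summed to 5565 and 5398 against 3965, 2949.8 and 3997 CPM and in mural cells to 26353 and 25499 against 22158, 25151 and 24425. The sums of all 3 disease libraries lay below both control libraries in each of these 5 gates. In neutrophils the groups overlap, at 10461 and 17098 against 11210, 6459 and 8338 CPM. The list's part in the levels of Cxcl1, Cxcl2 and Cxcl12 was not tested.

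The genes most like each of the 6 were found by Pearson's correlation of log2(CPM + 1) over 30 sums (5 libraries by 6 gates) among 8665 genes, as a description in which points share libraries and lineages. They were Tmed1, Klhl13 and Cp (r = 0.947, 0.937 and 0.934) for Cxcl1, Pilrb2, Igsf6 and Arl11 (r = 0.98, 0.98 and 0.98) for Cxcl2 and Il1f9, AC110211.1 and Msrb1 (r = 0.989, 0.983 and 0.982) for Cxcr2. For Cxcl12 they were Cgnl1, Prex2 and Cdc42ep1 (r = 0.945, 0.941 and 0.938), for Cxcr4 Grk2, Hcls1 and Inpp5d (r = 0.956, 0.952 and 0.947) and for Ackr3 Nid1, Plpp3 and Fbln2 (r = 0.974, 0.953 and 0.948).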

How the data were processed

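The deposited files are matrices of UMI counts per gene and barcode for 5 libraries. Per the file headers, the counts were made by Cell Ranger in version 3.1.0. The submitters' processing notes name the builds mm10 and GRCh38 and Seurat 3, with no role given. Deposited totals were 24991704 to 55053988 UMIs per library. Barcodes under 500 UMIs or 200 genes, or with more than 10% of UMIs from mitochondrial genes, were dropped, and doublets marked by Scrublet (scanpy 1.11.5) were removed, 1110 in all. In control replicate 2 it marked 4 (0.0716%), compared with 1.89 to 4.18% in the other libraries. Doublets were thus in effect not removed there, and the reason was not tested. No authors' cell annotation was used. A gate needed at least 3 UMIs from at least 2 of its markers and a sum 5 times that of every other lineage. Mural cells were added to the 5 lineages for comparison. Subdivisions used further markers.

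UMIs were summed per library and gate, filtered for low counts and tested with edgeR 4.0.16 (R 4.3.3, quasi-likelihood, TMM, Benjamini-Hochberg over all genes, threshold 0.05), with at least 20 cells per library. Levels and differences between gates came from joint fits, levels with the library as a block. Shares were tested by two-sided exact permutation of the library labels (10 arrangements), adjusted over their families. The scripts were tested on simulated data. Shares have Wilson 95% intervals, and a count of 0 allows up to 3 counts. Depth limits low genes most: Cxcr2 outside neutrophils rested on few UMIs.

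Alternatives were DESeq2 1.42.0, RLE size factors, every gene of at least 1 count, other gate settings, thinning to 500 or 2000 UMIs, up to 25% mitochondrial UMIs, doublets kept and each library left out. Removal of a GC trend, the minimum of 15 cells, the subdivision fits and the settings on S100a8 and S100a9 were added after the data were seen. The 6 genes and all lists were chosen with earlier results of these data known. Genes named were the 6, those of 5 lists, and for each of the 6 the 3 of highest correlation among genes with a mean of at least 10 CPM that were not gate markers. Others are said where named to be picked after their values were seen.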

Additional observations from a re-analysis of the deposited data

How the results depend on the processing

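No paired analysis was possible because the control and disease libraries share no replicate number. Of 599 values under settings other than leaving out a library, 569 counted as unchanged, and of 418 with a library left out, 340 did. For fold changes and levels unchanged means the same direction and side of the threshold. For shares it means the same direction only, however far the value moved. For numbers of genes called it means a value within a set ratio of the main number. The causes of the changes below were not tested. With every gene of at least 1 count kept, Cxcl12 passed in macrophages (-1.33, edgeR adjusted p = 0.0149). DESeq2 called Ackr3 in endothelial cells (0.54) and Cxcl12 over all cells (-1.93, adjusted p = 0.00942). The near-0 Ackr3 log2 fold change in lymphocytes turned to -0.061 with the GC trend removed, -0.051 with a gate minimum of 5 UMIs, -0.085 with a gate ratio of 3 and -0.029 with up to 25% mitochondrial UMIs. Cxcl2 in mural cells turned to -0.47 with doublets kept. The Cxcl2 level of endothelial minus mural cells turned to -0.11 with RLE factors, -0.21 with a gate ratio of 10 and -0.28 with doublets kept. The Cxcl2 level, fibroblast minus lymphocyte, turned to -0.046 with gates of at least 15 cells, -0.049 with a ratio of 3 and -0.017 with up to 25% mitochondrial UMIs. The fibroblast minus mural difference in the Cxcl12 fold change turned to 0.031 with RLE factors, 0.12 at 15 cells and 0.12 with up to 25% mitochondrial UMIs. The macrophage share of Cxcl2 UMIs, disease minus control, turned to -0.0375 percentage points with doublets kept. The number of genes called in macrophages was 737 and with every gene kept 1272. In lymphocytes it was 432, and 674 with every gene, 724 by DESeq2 and 271 with the GC trend removed. In mural cells it was 484, and 751 with every gene, 282 by DESeq2 and 278 with a ratio of 10. Over all cells it was 1033 and by DESeq2 1728.

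With each library left out in turn, the Cxcl12 log2 fold change ran from -2.19 to -1.68 in endothelial cells, -2.05 to -1.57 in fibroblasts, -2.11 to -1.31 in mural cells, -2.01 to -0.96 in macrophages and -2.60 to -1.55 over all cells. Without disease replicate 3 it passed in macrophages and over all cells. Its differences between gates ran from -0.27 to 0.059 (endothelial minus fibroblast), -0.59 to 0.27 (endothelial minus mural) and -0.40 to 0.22 (fibroblast minus mural). Cxcr2 ran from 3.001 to 4.62 in macrophages, with no value without disease replicate 4 because the gene fell below the filter, and from -0.016 to 0.47 in neutrophils. Ackr3 ran from -0.016 to 0.38 in fibroblasts, -0.084 to 1.12 in macrophages, -0.23 to 0.44 in lymphocytes, 0.44 to 0.81 in mural cells, where it passed without disease replicate 4, and -0.15 to 0.20 over all cells. Cxcl1 ran from -0.51 to 0.013 in fibroblasts, -0.42 to 0.16 in endothelial cells, -1.07 to 0.45 in lymphocytes and -0.61 to 0.097 over all cells. Cxcl2 ran from -0.16 to 0.89 in mural cells and -0.025 to 0.83 in neutrophils, and Cxcr4 from -0.95 to 0.27 in lymphocytes and -0.034 to 0.70 over all cells. The Cxcl2 level ran from -0.11 to 0.25 (endothelial minus mural) and -0.034 to 0.21 (fibroblast minus lymphocyte). The number of genes called ran from 822 to 1919 in fibroblasts, 185 to 1042 in macrophages, 765 to 1510 in endothelial cells, 0 to 182 in lymphocytes, 170 to 541 in mural cells and 124 to 1243 over all cells. In percentage points, disease minus control, the share of Ackr3 UMIs in fibroblasts ran from -6.35 to 0.184, of Cxcl12 UMIs in endothelial cells from -10.6 to 3.33, of Cxcl2 and Cxcr4 UMIs in macrophages from -3.09 to 5.47 and -7.19 to 22.1, and of fibroblasts with a Cxcl1 UMI from -11.5 to 1.95. With 2 control libraries, leaving one out leaves a lone library that is assumed to vary like the disease libraries.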
